A study of Mus musculus with 24 samples.

Results

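The genes described here are 32 named genes of fatty acid oxidation and of its control by the PPAR nuclear receptors, chosen by name from a list of mitochondrial and peroxisomal oxidation enzymes, fatty acid carriers, the receptors themselves and genes they are known to activate. All 32 were among the 43280 gene symbols in the files, and 31 had enough counts to be tested. Their RNA was measured in colon of female mice of the strain C.B-17/Icr-scid/scid (called SCID here), which lack mature T and B cells and keep their innate immune cells, and which were 7 weeks old when bought. There were 24 libraries, 4 in each of 6 groups, and the design asks how a MEK inhibitor and a TNF antibody change the colon in T cell transfer colitis. In 5 groups, SCID mice were injected intravenously on day 0 with 200000 CD4+ T cells from BALB/c spleens, activated for 3 days with Concanavalin A and human IL-2, were divided on day 17 by diarrhea score, and had the distal colon taken on day 28. Mice given Vehicle received 0.5% methylcellulose. The MEKi 0.3 and MEKi 1 mice received a MEK inhibitor by mouth, daily on days 17 to 27, in enteric microparticles, at 0.3 mg/kg or 1 mg/kg. The labels give no group with drug-free microparticles, so particle and drug cannot be told apart. Anti-TNFa mice received 0.1 mg of an antibody to the cytokine TNFa intraperitoneally every 4 days from day 17, and Isotype mice a control antibody on the same schedule. Normal mice were untreated SCID mice outside the 5 transferred groups. The labels do not say whether each library is 1 animal, so the spread behind the p-values is that among these libraries and may be technical.

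Fatty acids enter mitochondria as carnitine esters and are shortened there by repeated rounds of dehydrogenation, hydration, another dehydrogenation and thiolysis, while peroxisomes shorten the longest chains. In the colon, the mature cells of the epithelial surface burn fatty acids, above all the butyrate made by bacteria, as their main fuel. PPARA, PPARG and PPARD are receptors for fatty acids that pair with RXR on DNA and switch on many of these enzymes, and PPARGC1A is a coactivator that strengthens them.

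The Vehicle, MEKi 0.3 and MEKi 1 libraries held 4102817 to 5271844, 4034493 to 5840995 and 3175698 to 4678256 counts, those of Anti-TNFa and Isotype 6974099 to 8545019 and 6139216 to 10587555, and those of Normal 3052940 to 5358259. In a table of the whole series, 16 of 24 columns bear a name that differs from the sample file with identical counts. Groups follow the samples' own files, by which 4 T cell genes (Cd3d, Cd3e, Cd3g and Lck) summed to 270 to 458 counts in Vehicle and 13 to 19 in Normal. The namings of Anti-TNFa replicates 1 and 2 and Isotype replicates 3 and 4 are exchanged between files and table, and these counts do not decide between them. Transcripts of pancreas enzymes stood at 4902 CPM (counts scaled to a common library total) in Vehicle replicate 4 and at 4052 CPM in Isotype replicate 1, against 0 to 102 CPM in the other 22 libraries. All 8 epithelial markers were present, with summed levels of 13990 to 19308 CPM in Vehicle and 13241 to 18267 CPM in Normal. In bulk tissue, fewer cells of a type and less RNA per cell cannot be told apart.

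In Normal colon, 1 electron carrier gene and 3 of the acyl-CoA dehydrogenase genes had the highest levels per kilobase of annotated exon. That length joins the exons of all annotated transcripts of a gene, so the order depends on the annotation. By CPM alone, Hadha at 356 CPM and Hadh at 329 CPM were highest in Normal. Etfb, a subunit of the flavoprotein that takes electrons from the acyl-CoA dehydrogenases, stood first at 141 CPM per kilobase of exon, but 53.0% of its exon bases are shared on the same strand with Gm45233, so its counts are uncertain. Acads, Acadl and Acadvl, the dehydrogenases for short, long and very long chains, followed at 123, 109 and 94.9 CPM per kilobase. The receptor gene Ppara, at 1.90 CPM per kilobase, and the PPAR targets Angptl4 and Pdk4, at 1.29 and 1.03 CPM per kilobase, were near the bottom. Fabp1, a fatty acid binding protein of liver and small intestine, had 0 to 2 counts in every library of the 6 groups. It was not tested, and no fold is given for it. Of the small intestinal markers, Fabp6, Apoa4, Apoa1, Sis, Lct and Rbp2 summed to 21.4 to 47.8 CPM in Vehicle and 55.7 to 127 CPM in Normal, nearly all of it Rbp2, which averaged 33.7 CPM in Vehicle and 85.8 CPM in Normal.

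The promoters of 28 members were in the RefSeq table (build GRCm38.p6), as 31 windows of 300 bases that run from 250 bases before the start site to 50 bases after it. They were searched on both strands for the PPAR and RXR element, a direct repeat of the hexamer AGGTCA with 1 base between. The full element AGGTCANAGGTCA was in 0 of the 31 windows and in 0.0396% of all 32851 windows of the table. With 1 free base in each hexamer, AGGNCANAGGNCA, it was in 0.381% of all windows and in 1 member's, that of Fabp1, the gene that is nearly silent here. A single AGGTCA, which the longer elements contain when they match in full, was in 9 of 31 member windows (29.0%) and in 16.3% of all windows. TCAAGGTCA, an extended single site that estrogen related receptors can bind and that itself contains AGGTCA, was in 0 of 31 and in 0.423% of all windows. A match is a string of letters, and nothing about binding was measured. Windows are shown for 5 genes on which the results or this search turn. Acadvl, at chr11:70015379-70015678 on the minus strand, Cpt1a, at chr19:3323051-3323350 on the plus strand, and Plin2, at chr4:86670010-86670309 on the minus strand, have the single hexamer in capitals, as it reads on the gene's strand. It starts 87, 94 and 218 bases before their start sites. Fabp1, at chr6:71199629-71199928 on the plus strand, has the loosened repeat in capitals. Hadhb, at chr5:30155003-30155302 on the plus strand, has in capitals the 228 bases it shares with the window of Hadha, the partner subunit transcribed the other way, with 272 bases between the RefSeq start sites of both genes.
Acadvl: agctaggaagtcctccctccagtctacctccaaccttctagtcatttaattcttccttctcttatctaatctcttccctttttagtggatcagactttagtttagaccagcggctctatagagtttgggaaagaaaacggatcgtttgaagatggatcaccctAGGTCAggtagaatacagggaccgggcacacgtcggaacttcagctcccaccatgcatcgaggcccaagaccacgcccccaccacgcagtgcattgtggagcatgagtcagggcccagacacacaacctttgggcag
Cpt1a: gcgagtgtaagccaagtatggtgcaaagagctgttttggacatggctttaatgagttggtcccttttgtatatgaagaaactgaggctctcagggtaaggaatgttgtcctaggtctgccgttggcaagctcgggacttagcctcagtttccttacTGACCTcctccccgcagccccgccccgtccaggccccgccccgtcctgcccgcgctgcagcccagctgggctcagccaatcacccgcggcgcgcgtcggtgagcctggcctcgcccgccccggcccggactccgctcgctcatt
Plin2: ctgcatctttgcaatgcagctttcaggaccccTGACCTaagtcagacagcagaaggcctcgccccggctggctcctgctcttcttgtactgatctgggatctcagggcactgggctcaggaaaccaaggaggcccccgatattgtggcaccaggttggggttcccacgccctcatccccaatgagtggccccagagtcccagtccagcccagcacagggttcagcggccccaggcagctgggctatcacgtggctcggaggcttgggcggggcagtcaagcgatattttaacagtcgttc
Fabp1: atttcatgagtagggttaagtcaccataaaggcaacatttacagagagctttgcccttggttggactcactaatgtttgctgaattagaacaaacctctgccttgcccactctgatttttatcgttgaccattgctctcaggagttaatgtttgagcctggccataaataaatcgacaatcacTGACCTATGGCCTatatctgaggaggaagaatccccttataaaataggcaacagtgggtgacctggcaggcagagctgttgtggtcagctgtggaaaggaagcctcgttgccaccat
Hadhb: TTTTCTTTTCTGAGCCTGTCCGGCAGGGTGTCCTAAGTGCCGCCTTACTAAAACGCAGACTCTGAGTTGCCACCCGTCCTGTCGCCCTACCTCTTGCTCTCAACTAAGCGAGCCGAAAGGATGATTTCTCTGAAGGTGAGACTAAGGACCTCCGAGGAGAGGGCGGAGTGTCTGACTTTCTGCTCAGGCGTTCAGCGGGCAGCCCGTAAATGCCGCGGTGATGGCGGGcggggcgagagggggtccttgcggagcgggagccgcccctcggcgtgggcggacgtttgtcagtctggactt

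In colitis mice given Vehicle, most of the pathway was lower than in Normal mice, which had neither cell transfer nor dosing. In Vehicle against Normal, 22 of 31 members fell and 2 rose by edgeR's quasi-likelihood test with Benjamini-Hochberg adjustment over 14773 genes. Of all genes, 46.4% passed that test, 23.3% lower and 23.1% higher. Where groups are said below not to overlap, that describes the named gene only. The share of all genes without overlap is not given here. The median log2 fold change of the members was -0.64, against 0.00 over all genes. The lowest members were the receptor Ppara and its coactivator Ppargc1a, and the 2 higher ones were Angptl4 and Acsl5. The 7 that did not pass were Pparg, Acadl, Eci1, Eci2, Etfa, Etfb and Acaa1b.

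**Figure D1:**
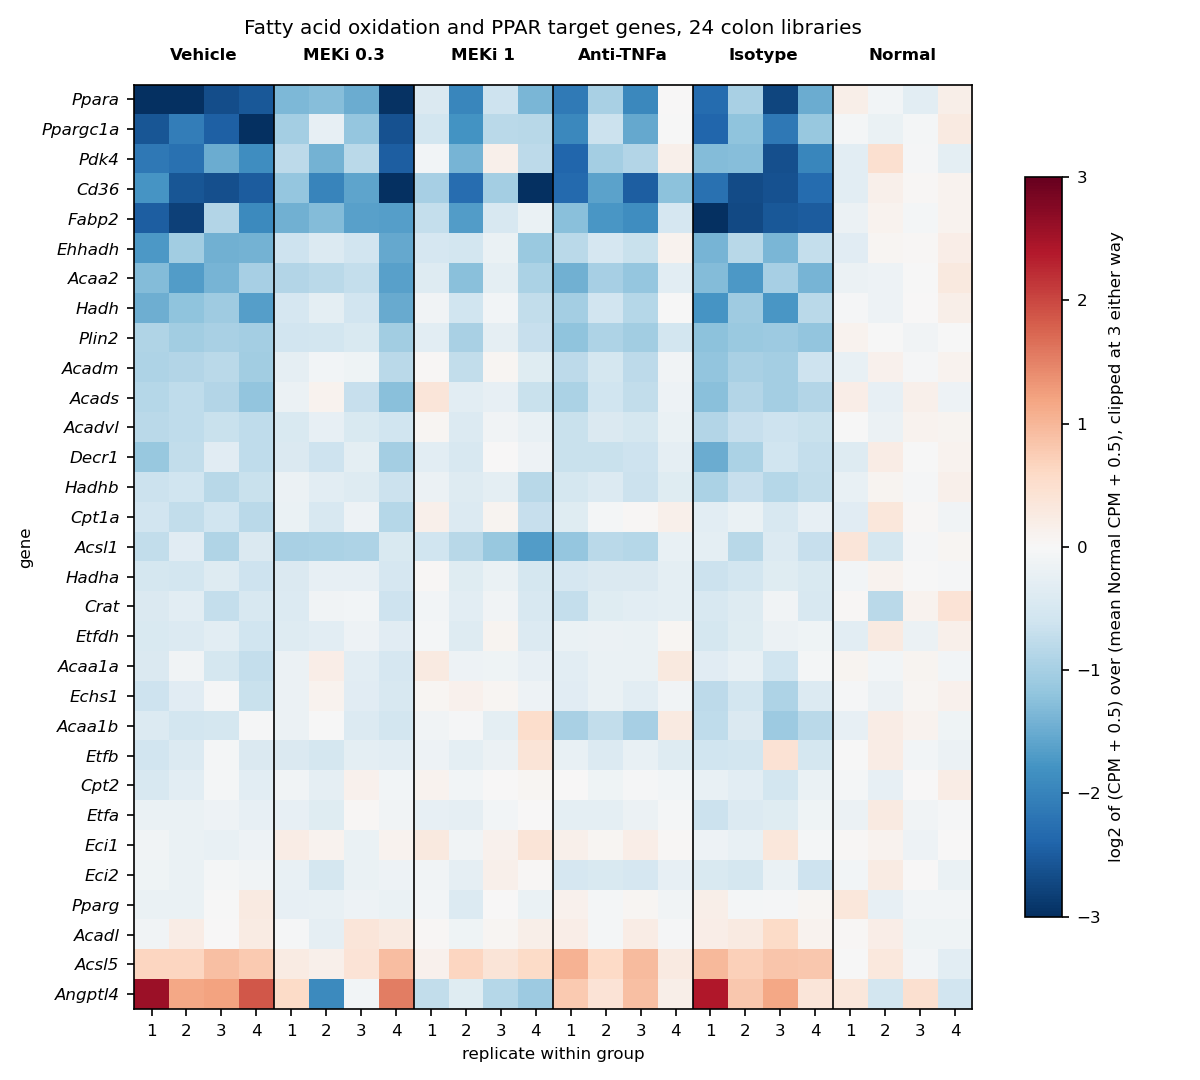
Each row is 1 of the 31 tested genes and each column 1 library, ordered by group. Colour is the log2 difference of (CPM + 0.5) from the Normal mean, clipped at 3 either way. Most rows are blue in all 4 Vehicle libraries, and the Angptl4 and Acsl5 rows are red there.

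Of the regulators, Ppara, the receptor best known for fasting fat oxidation in liver, had 0, 0.379, 0.731 and 0.843 CPM in Vehicle, against 8.23, 6.88, 5.79 and 8.23 CPM in Normal. That is 0 to 4 counts per Vehicle library and 21 to 40 per Normal library, and the groups did not overlap. The fitted log2 fold change was -3.91 ± 0.69 (SE, adjusted p = 0.00011). Ppargc1a had 6.83, 9.86, 7.56 and 4.00 CPM in Vehicle and 41.8, 37.7, 41.2 and 52.2 CPM in Normal, again without overlap, its log2 fold change being -2.65 ± 0.48 (adjusted p = 0.00021). Pparg, the receptor prominent in adipocytes and in colon epithelium, had 42.7, 42.7, 49.2 and 59.6 CPM in Vehicle and 63.0, 41.6, 46.3 and 46.3 CPM in Normal. Its libraries were intermixed, and the 95% interval of its log2 fold change ran from -0.33 to 0.19.

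Uptake and activation genes moved apart. Cd36, a fatty acid translocase of the cell surface, was at 6.61, 3.60, 3.41 and 3.79 CPM in Vehicle, against 18.8, 26.2, 24.1 and 25.5 CPM in Normal, with a log2 fold change of -2.48 ± 0.40 (adjusted p = 4.2e-05). Fabp2, which carries fatty acids inside intestinal cells, was at 5.33, 4.17, 17.3 and 8.22 CPM in Vehicle, against 28.4, 34.7, 30.8 and 34.3 CPM in Normal, with a log2 fold change of -1.93 ± 0.44. Every Vehicle library of both genes was below every Normal library, with Vehicle replicate 3 the nearest for Fabp2. The 2 acyl-CoA synthetases, which load fatty acids onto coenzyme A, went opposite ways. Acsl5 rose to 154, 154, 183 and 169 CPM in Vehicle, against 97.0, 122, 92.2 and 78.8 CPM in Normal (log2 fold change 0.72 ± 0.18, adjusted p = 0.00203), while Acsl1 averaged 26.3 ± 4.76 CPM in Vehicle and 39.6 ± 9.82 CPM in Normal (SD, n = 4 each), with overlap and a log2 fold change of -0.64 ± 0.22. The transcript of Acsl5 shares 404 exon bases with Zdhhc6 on the other strand, and reads of the 2 cannot be told apart where strand was not counted.

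Of the carnitine genes, Cpt1a, the rate-setting transferase of mitochondrial entry, had 133, 117, 130 and 112 CPM in Vehicle, against 154, 248, 202 and 181 CPM in Normal. Its groups did not overlap, and its log2 fold change was -0.72 ± 0.18 (adjusted p = 0.00216). Cpt2, the inner membrane partner, and Crat, which handles acetyl and other short groups, fell by less, with log2 fold changes of -0.32 ± 0.12 and -0.53 ± 0.19 and overlapping libraries.

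The acyl-CoA dehydrogenases start each round of oxidation. Acadvl had 145, 151, 161 and 150 CPM in Vehicle and 252, 227, 273 and 268 CPM in Normal, a log2 fold change of -0.79 ± 0.13 (adjusted p = 4.6e-05). Acadm, the medium-chain enzyme, had 67.2, 69.2, 72.4 and 62.4 CPM in Vehicle and 109, 141, 125 and 137 CPM in Normal, a log2 fold change of -0.96 ± 0.19. Acads had 154, 164, 152 and 122 CPM in Vehicle and 320, 234, 309 and 253 CPM in Normal, a log2 fold change of -0.95 ± 0.23. All Vehicle libraries of these 3 genes were below all Normal libraries. Acadl, the long-chain enzyme of mouse, averaged 233 ± 26.9 CPM in Vehicle and 218 ± 24 CPM in Normal (SD, n = 4 each), with a 95% interval of -0.25 to 0.35 on the log2 scale. Acadvl shares 1151 exon bases with Dvl2 on the other strand, which had 1722 counts over all libraries against 25886 for Acadvl.

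The later steps of the cycle fell by amounts that differed between enzymes. Hadh, the hydroxyacyl-CoA dehydrogenase of short and medium chains, had 119, 141, 156 and 104 CPM in Vehicle and 319, 295, 331 and 371 CPM in Normal, a log2 fold change of -1.38 ± 0.26 (adjusted p = 0.000224). Acaa2, the mitochondrial thiolase, had 51.2, 39.5, 47.8 and 64.0 CPM in Vehicle and 113, 114, 127 and 155 CPM in Normal, also -1.38 ± 0.25. Neither gene's groups overlapped. Hadha and Hadhb, the subunits of the trifunctional protein that does the last 3 steps for long chains, averaged 249 ± 18.1 and 61.9 ± 4.35 CPM in Vehicle, against 356 ± 18.7 and 99.3 ± 10.5 CPM in Normal (SD, n = 4 each). Their log2 fold changes were -0.56 ± 0.12 and -0.73 ± 0.13, and neither gene's libraries overlapped. Echs1, the short-chain hydratase, had a log2 fold change of -0.44 ± 0.15.

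Of the 6 auxiliary and electron transfer genes, 2 fell. Decr1, the reductase needed for many unsaturated chains, had a log2 fold change of -0.76 ± 0.21, and Etfdh, which passes electrons to the respiratory chain, of -0.49 ± 0.15. The isomerases Eci1 and Eci2 and the flavoprotein subunits Etfa and Etfb did not pass, with log2 fold changes of -0.21, -0.17, -0.25 and -0.40. Of the peroxisomal enzymes, Ehhadh, the bifunctional hydratase and dehydrogenase, had 12.2, 19.7, 14.9 and 15.2 CPM in Vehicle and 32.7, 42.9, 42.0 and 47.5 CPM in Normal, with no overlap and a log2 fold change of -1.45 ± 0.25 (adjusted p = 7.6e-05). The thiolase genes Acaa1a (-0.48 ± 0.17, past the threshold) and Acaa1b (-0.42 ± 0.28, not past it) have transcripts 96.0% identical over 1450 aligned bases, so their separate counts are uncertain.

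The PPAR targets outside the cycle split. Pdk4, the kinase that shuts pyruvate out of the mitochondrion, had 0.427, 0.379, 0.975 and 0.632 CPM in Vehicle, against 2.81, 5.24, 3.55 and 2.88 CPM in Normal. It rested on 2 to 4 counts per Vehicle library, and its log2 fold change was -2.59 ± 0.66 (adjusted p = 0.00279). Plin2, which coats lipid droplets, had 132, 120, 126 and 121 CPM in Vehicle and 268, 246, 232 and 245 CPM in Normal, a log2 fold change of -1.03 ± 0.15 (adjusted p = 1.9e-05). Angptl4, a secreted inhibitor of lipoprotein lipase that hypoxia also induces, went the other way, to 29.6, 10.8, 11.2 and 17.9 CPM in Vehicle, against 5.85, 2.95, 6.53 and 2.88 CPM in Normal. All 3 genes had groups without overlap, and the log2 fold change of Angptl4 was 1.86 ± 0.53 (adjusted p = 0.0067).

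Other cell types moved in the same comparison. The 6 surface colonocyte markers (Slc26a3, Car4, Krt20, Car1, Aqp8 and Guca2a) summed to 1941 to 2452 CPM in Vehicle and 8625 to 9889 CPM in Normal, with 5 lower and 1, Krt20, higher. Of 5 adipocyte markers, 4 were tested and all 4 fell, and the 5 summed to 9.51 to 21.7 CPM in Vehicle and 126 to 180 CPM in Normal, with Lep at 0 in Vehicle. The 4 leukocyte markers summed to 390 to 648 CPM in Vehicle and 59.0 to 83.3 CPM in Normal, all 4 higher. Cd36, Plin2, Pparg and Angptl4 are also expressed in adipocytes, and Acsl5, Plin2 and Angptl4 in other cell types of inflamed tissue. The 6 smooth muscle markers all fell, summing to 1372 to 2913 CPM in Vehicle and 6284 to 7399 CPM in Normal, and the goblet cell markers, 3 lower and 2 higher of 6, summed to 6843 to 9583 CPM in Vehicle and 14003 to 17817 CPM in Normal. The part of these cell types in the members' changes was not tested.

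**Figure D2:**
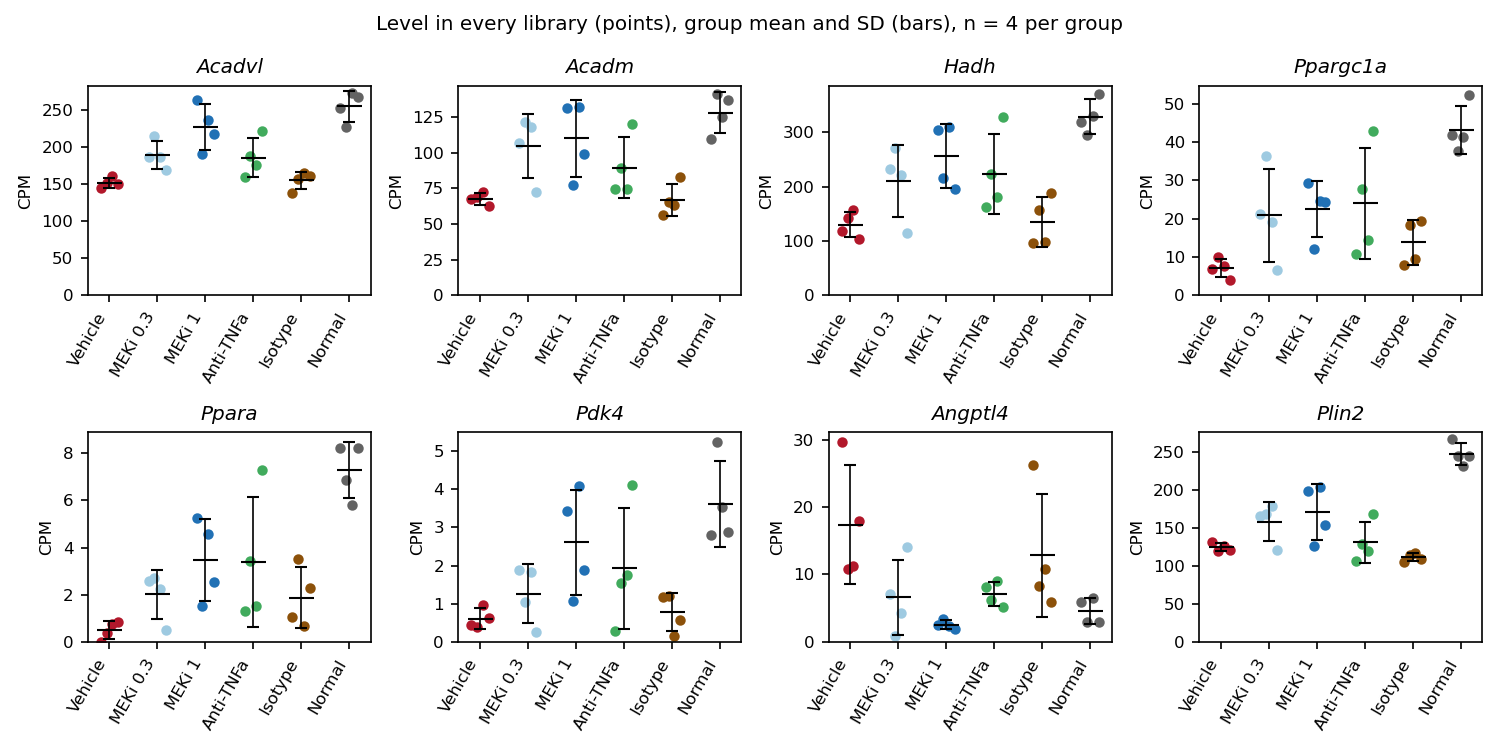
Level in CPM of 8 genes in every library (points), with the group mean and SD (bars, n = 4), each axis starting at 0. The Vehicle mean lies below the Normal mean for every gene shown except Angptl4, and the MEKi 1 mean lies between them except for Angptl4, where it is lowest.

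Isotype, the other colitis control, was set against the same Normal libraries and also had most of the pathway lower. In Isotype against Normal, 21 of 31 members fell and 2 rose, where 41.2% of all genes passed (20.3% lower, 20.9% higher), and the members' median log2 fold change was -0.71. Fabp2 was the lowest member, at 0.943, 4.46, 5.05 and 5.29 CPM in Isotype against 28.4 to 34.7 CPM in Normal, a log2 fold change of -3.06 ± 0.46 (adjusted p = 3.1e-05). Cd36 at 3.25 to 4.60 CPM (-2.64 ± 0.38), Pdk4 at 0.163 to 1.21 CPM (-2.19 ± 0.58) and Plin2 at 106 to 117 CPM (-1.20 ± 0.15) were all below Normal without overlap. Ppara was at 1.06, 3.50, 0.652 and 2.27 CPM in Isotype and had a log2 fold change of -1.98 ± 0.54, and Ppargc1a, at 7.90, 18.3, 9.45 and 19.5 CPM, of -1.69 ± 0.44. Acaa2 had a log2 fold change of -1.39, Hadh of -1.34, Ehhadh of -1.11, Acads of -1.04, Acadm of -0.98, Acadvl of -0.76 and Hadha of -0.54. Decr1 (-0.94), Hadhb (-0.86), Acaa1b (-0.85), Echs1 (-0.71), Acsl1 (-0.60), Eci2 (-0.48), Etfa (-0.42) and Cpt2 (-0.37) fell as well. Cpt1a, at 141 to 172 CPM in Isotype, did not pass (-0.35 ± 0.17, adjusted p = 0.11), and Pparg had -0.01 ± 0.13. Angptl4 (1.41 ± 0.52) and Acsl5 (0.80 ± 0.18) were the 2 higher members. Surface colonocyte markers (5 of 6 lower, 1 higher) summed to 1704 to 3129 CPM in Isotype and 8625 to 9889 CPM in Normal. All 4 adipocyte markers tested and all 6 smooth muscle markers fell, and all 4 leukocyte markers rose, to a sum of 327 to 536 CPM in Isotype against 59.0 to 83.3 CPM in Normal. Their part in the members' values was not tested. Both colitis controls share the Normal libraries, and the difference between them was not tested.

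At 1 mg/kg, the MEK inhibitor group had higher levels of several oxidation enzymes and of their regulators, and a lower level of Angptl4. In MEKi 1 against Vehicle, 10 of 31 members rose and 1 fell, where 10.6% of all genes passed (6.08% higher, 4.51% lower). The members' median log2 fold change was 0.46, against 0.00 over all genes. The 10 were Ppara, Pdk4, Ppargc1a, Hadh, Ehhadh, Acads, Acadm, Acadvl, Plin2 and Echs1. DESeq2 called the same 11 members and also Acaa2, Cpt1a, Cpt2 and Fabp2, where 14.2% of all genes passed. These Vehicle libraries are the same as in the comparison with Normal, so the 2 sets of values are not independent.

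Among regulators, Ppara rose to 5.25, 1.5, 4.59 and 2.52 CPM in MEKi 1, against 0 to 0.843 CPM in Vehicle, a log2 fold change of 2.84 ± 0.73 (adjusted p = 0.0214). Ppargc1a rose to 29.2, 12.2, 24.5 and 24.2 CPM in MEKi 1, against 4.00 to 9.86 CPM in Vehicle, a log2 fold change of 1.71 ± 0.48 (adjusted p = 0.0328). Neither gene's groups overlapped, and replicate 2 was the lowest MEKi 1 library for both. Pparg averaged 44.1 ± 5.52 CPM in MEKi 1 (SD, n = 4), against 42.7 to 59.6 CPM in Vehicle (-0.09 ± 0.13, not past the threshold).

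The first dehydrogenases rose except for Acadl. Acadvl had 263, 190, 237 and 217 CPM in MEKi 1 and 145 to 161 CPM in Vehicle, a log2 fold change of 0.63 ± 0.13 (adjusted p = 0.0108). Acadm had 131, 77.2, 132 and 99.2 CPM in MEKi 1 and 62.4 to 72.4 CPM in Vehicle, 0.74 ± 0.19 on the log2 scale (adjusted p = 0.0213). Acads had 358, 224, 235 and 174 CPM in MEKi 1 and 122 to 164 CPM in Vehicle, 0.78 ± 0.23 (adjusted p = 0.0358). Every MEKi 1 library of these 3 genes was above every Vehicle library. Acadl was at 200 to 247 CPM in MEKi 1 and 202 to 257 CPM in Vehicle, with a 95% interval of -0.31 to 0.29.

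Further along the cycle, Hadh had 304, 216, 309 and 196 CPM in MEKi 1 and 104 to 156 CPM in Vehicle, without overlap, a log2 fold change of 1.01 ± 0.26 (adjusted p = 0.0213). Echs1 rose by 0.46 ± 0.15 and the peroxisomal Ehhadh by 0.89 ± 0.25, both with libraries that overlapped those of Vehicle. Hadha, at 363, 276, 311 and 245 CPM in MEKi 1 and 232 to 274 CPM in Vehicle, did not pass (0.31 ± 0.12, adjusted p = 0.0977). Cpt1a came close, at 219, 147, 207 and 122 CPM in MEKi 1 and 112 to 133 CPM in Vehicle (0.54 ± 0.18, adjusted p = 0.0511). The carriers did not pass by edgeR either. Cd36 was at 11.6, 4.49, 11.5 and 2.52 CPM in MEKi 1 and 3.41 to 6.61 CPM in Vehicle (0.84 ± 0.41). Fabp2, which DESeq2 called, was at 19.4, 9.62, 23.0 and 28.0 CPM in MEKi 1 and 4.17 to 17.3 CPM in Vehicle (1.25 ± 0.44).

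Of the PPAR targets, Pdk4 rose to 3.42, 1.07, 4.08 and 1.89 CPM in MEKi 1, against 0.379 to 0.975 CPM in Vehicle, from 5 to 16 counts per MEKi 1 library (2.15 ± 0.68, adjusted p = 0.0447). Plin2 rose to 199, 127, 204 and 154 CPM in MEKi 1, against 120 to 132 CPM in Vehicle, with replicate 2 inside the Vehicle range (0.50 ± 0.15, adjusted p = 0.0403). Angptl4 fell to 2.51, 3.42, 2.30 and 1.89 CPM in MEKi 1, against 10.8 to 29.6 CPM in Vehicle, without overlap. Its log2 fold change was -2.70 ± 0.57 (adjusted p = 0.0117).

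Of the 20 members that did not pass by edgeR, Acsl1 and Acsl5, at -0.39 ± 0.22 and -0.26 ± 0.17 on the log2 scale, were the lowest. Acaa2 was at 0.71, Decr1 at 0.55, Acaa1b at 0.49, Acaa1a at 0.43, Eci1 at 0.41, Etfb at 0.39, Cpt2 at 0.35, Hadhb at 0.32, Etfdh at 0.31, Crat at 0.28, Eci2 at 0.14 and Etfa at 0.11.

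**Figure D3:**
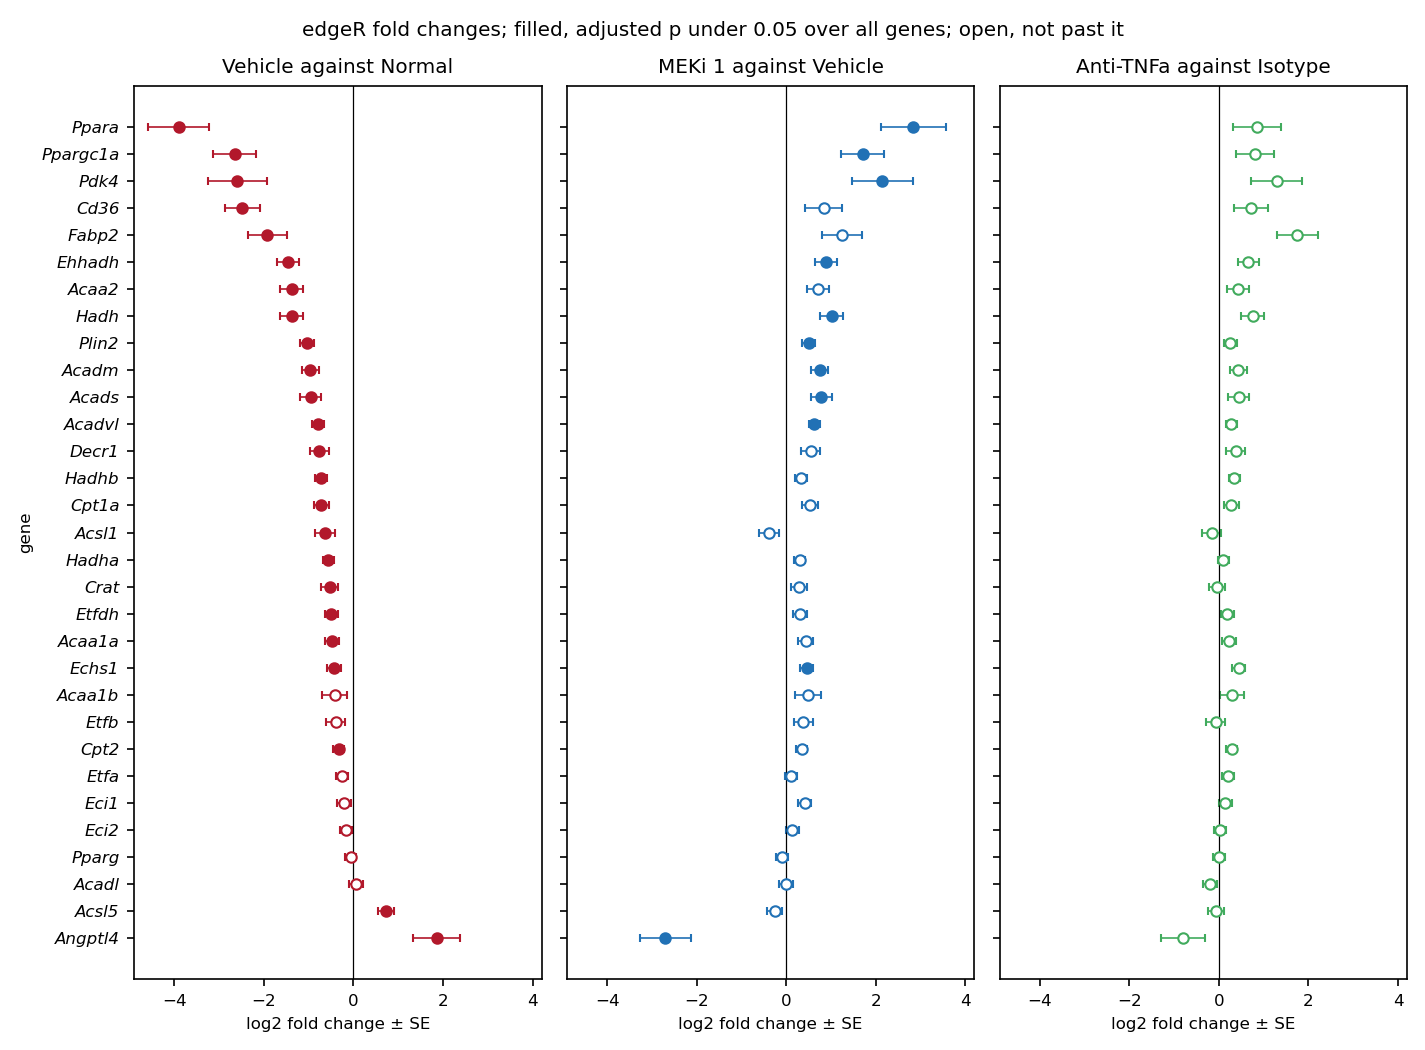
Log2 fold change with its SE for the 31 genes in Vehicle against Normal, MEKi 1 against Vehicle and Anti-TNFa against Isotype. Filled points have an adjusted p under 0.05 over all genes, which is the case for 24, 11 and 0 genes. Angptl4 points the other way from most genes in each panel.

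The number of members that passed in MEKi 1 against Vehicle rested on single libraries, while the direction of the 11 did not turn when any 1 library was left out. The count was 2 without Vehicle replicate 1 (2.16% of all genes passed in that fit), 7 without Vehicle replicate 2 (5.42%), 2 without Vehicle replicate 4 (0.874%), 0 without MEKi 1 replicate 1 (0.286%) and 2 without MEKi 1 replicate 3 (1.97%). Acadvl and Angptl4 were the 2 that passed in 3 of these. Over all 8 such fits the count ran from 0 to 15. Without MEKi 1 replicate 2, 10 of the 11 passed, and so did Acaa2, Cpt1a, Cpt2, Eci1 and Fabp2 (15.8% of all genes). Without MEKi 1 replicate 1, 18 members had an unadjusted p under 0.05, and over all genes 15 rose and 28 fell. Over the 8 fits that leave out 1 library, the log2 fold change of Acadvl was 0.54 to 0.72, that of Hadh 0.91 to 1.12, that of Ppara 2.43 to 3.23 and that of Angptl4 -2.87 to -2.34.

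Marker genes moved with the drug group too. Surface colonocyte markers summed to 5197, 1932, 4954 and 4511 CPM in MEKi 1, against 1941 to 2452 CPM in Vehicle, and of the 6 Car4 and Aqp8 rose. MEKi 1 replicate 2, with the lowest sum, was the lowest library for Acadm, Ppara, Ppargc1a, Pdk4 and Plin2. Replicate 4, with a sum of 4511 CPM, was the lowest for Acads, Hadh, Hadha, Cpt1a and Cd36, and over all 31 members its median log2 difference from the Normal mean was -0.40, against -0.39 in replicate 2, -0.10 in replicate 1 and -0.11 in replicate 3. Adipocyte markers summed to 109, 2.78, 27.6 and 1.89 CPM in MEKi 1 and 9.51 to 21.7 CPM in Vehicle, with 0 of 4 past the threshold. Leukocyte markers summed to 135 to 373 CPM in MEKi 1 and 390 to 648 CPM in Vehicle, with 4 of 4 lower. Goblet cell markers summed to 11500 to 13855 CPM in MEKi 1 and 6843 to 9583 CPM in Vehicle. For neutrophil markers the sums were 16.9 to 148 CPM in MEKi 1 and 428 to 1055 CPM in Vehicle. Smooth muscle markers overlapped, at 2169 to 3935 CPM in MEKi 1 and 1372 to 2913 CPM in Vehicle. Their part in the members' changes was not tested.

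**Figure D4:**
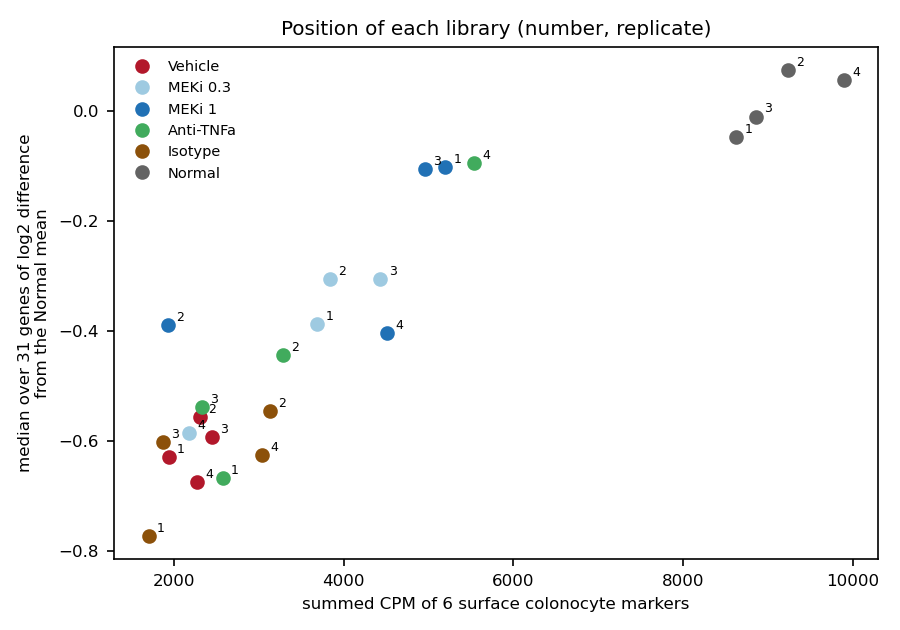
Each point is 1 library, numbered by replicate. The x axis is the summed CPM of 6 surface colonocyte markers, and the y axis the median over 31 genes of the log2 difference from the Normal mean. Vehicle and Isotype libraries sit at the lower left and Normal at the upper right. MEKi 1 replicates 1 and 3 and Anti-TNFa replicate 4 lie highest among the colitis libraries.

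At 0.3 mg/kg, no member passed in MEKi 0.3 against Vehicle by edgeR, where 0.00677% of all genes, 1 gene, did. An unadjusted p under 0.05 was found for 10 of 31 members and for 17.8% of all genes, and DESeq2 called 1 member, Ppargc1a, among 92 genes. The members' median log2 fold change was 0.25. Replicate 4 stood apart from the other 3 libraries of the group. Acadm was at 107, 122, 118 and 72.4 CPM in MEKi 0.3, against 62.4 to 72.4 CPM in Vehicle (0.65 ± 0.19, adjusted p = 0.193). Hadh was at 231, 270, 221 and 115 CPM in MEKi 0.3 and 104 to 156 CPM in Vehicle (0.71 ± 0.26). Ppargc1a was at 21.2, 36.5, 19.0 and 6.69 CPM in MEKi 0.3 and 4.00 to 9.86 CPM in Vehicle (1.58 ± 0.48, adjusted p = 0.193). In all 3 genes replicate 4 lay within the Vehicle range or at its edge, and the other 3 libraries lay above it. Surface colonocyte markers summed to 3687, 3840, 4435 and 2178 CPM in these libraries, lowest again in replicate 4. That library was also lowest of its group for goblet cell markers (7429 CPM, the others 11776 to 13154) and smooth muscle markers (1680 CPM, the others 2953 to 3691). Its neutrophil markers were highest (616 CPM, the others 54.9 to 166). The part of these cell types in the members' values was not tested.

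Without MEKi 0.3 replicate 4, 9 members passed in this comparison, 8 higher (Acadm, Acads, Ehhadh, Hadh, Hadhb, Plin2, Ppara and Ppargc1a) and Angptl4 lower, where 7.52% of all genes passed. Same-numbered libraries of these 2 groups had weakly correlated deviations (0.125 to 0.184), which were not compared with those of differently numbered libraries of the 2 groups. The labels do not pair libraries by number, and over all groups 3 of 24 libraries correlated best with their own number. A fit of the 2 groups with a replicate block, chosen after seeing the data, called 3 members, Acadm, Hadh and Ppargc1a, where 2.85% of all genes passed. A replicate block in the fit of all libraries, and a fit of the 2 groups without it, each called 0 members. In the fit of all libraries, Ppara, at 2.57, 2.72, 2.25 and 0.496 CPM in MEKi 0.3, had a log2 fold change of 2.07 ± 0.75. Angptl4 was at 7.02, 0.838, 4.30 and 14.1 CPM in MEKi 0.3, and its log2 fold change was -1.40 ± 0.51. Other log2 fold changes were 0.34 for Acadvl, 0.19 for Hadha, 0.30 for Cpt1a, 1.13 for Pdk4, 0.37 for Plin2, -0.16 for Pparg, 0.63 for Cd36 and 0.37 for Fabp2.

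Along Vehicle, 0.3 mg/kg and 1 mg/kg, the group means of 23 of 31 members were in rising order, those of Acsl1, Acsl5 and Angptl4 in falling order, and those of Acadl, Eci2, Etfb, Hadhb and Pparg in neither. The order of means was not tested. The share of all genes in each order is not given here, so these counts are no result about the members. Acadvl averaged 152 ± 6.72, 189 ± 18.7 and 227 ± 30.8 CPM along these groups, Ppara 0.488 ± 0.381, 2.01 ± 1.03 and 3.46 ± 1.75 CPM, and Angptl4 17.4 ± 8.79, 6.57 ± 5.64 and 2.53 ± 0.648 CPM (SD, n = 4 each). The 2 doses were not tested against each other.

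In Anti-TNFa against Isotype, no member passed by edgeR, where 0.0203% of all genes, 3 genes, did. Of the 31 members, 9 had an unadjusted p under 0.05, all higher, as did 11.2% of all genes in either direction, and DESeq2 called 1 member, Fabp2, among 77 genes. The median log2 fold change of the members was 0.28. Fabp2 had 13.0, 9.13, 8.43 and 22.4 CPM in Anti-TNFa, against 0.943, 4.46, 5.05 and 5.29 CPM in Isotype. These did not overlap, and the log2 fold change was 1.75 ± 0.45 with an adjusted p of 0.18 by edgeR. For other members 1 library stood highest. Ppargc1a was at 10.9, 27.6, 14.5 and 42.8 CPM in Anti-TNFa and 7.90 to 19.5 CPM in Isotype (0.81 ± 0.43). Ppara was at 1.29, 3.44, 1.52 and 7.29 CPM in Anti-TNFa and 0.652 to 3.50 CPM in Isotype (0.84 ± 0.54). Anti-TNFa replicate 4 was the highest of its group for both, and for Acadvl, Acadm, Hadh, Pdk4 and Plin2.

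Acadvl averaged 186 ± 26.3 CPM in Anti-TNFa and 155 ± 11.7 CPM in Isotype (SD, n = 4 each), with a 95% interval of 0.03 to 0.52 for the log2 fold change and an adjusted p of 0.421 by edgeR. Other log2 fold changes were 0.43 for Acadm, 0.10 for Hadha, 0.28 for Cpt1a, 1.29 for Pdk4, -0.80 for Angptl4, 0.25 for Plin2, 0.72 for Cd36 and 0.00 for Pparg. With the 4 antibody libraries named as in the series table the members' median was 0.22, and without them, with 2 libraries left in each group, it was 0.45. No gene passed in either fit, over all genes. Surface colonocyte markers summed to 2576, 3286, 2335 and 5533 CPM in Anti-TNFa and 1704 to 3129 CPM in Isotype, highest in Anti-TNFa replicate 4. That library was also highest of its group for smooth muscle (4850 CPM, the others 1965 to 2590), goblet cell (18127 CPM, the others 9937 to 12636) and adipocyte markers (62.6 CPM, the others 10.1 to 28.0). Its leukocyte markers were lowest (148 CPM, the others 232 to 321). The part of these cell types in the members' values was not tested.

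The effects of both treatments were compared directly, as the MEKi 1 effect over Vehicle minus the Anti-TNFa effect over Isotype. No member passed by edgeR, where 0.0135% of all genes did, and DESeq2 called 0 as well. An unadjusted p under 0.05 was found for 2 of 31 members, Ppara, with a difference of 1.99 ± 0.92 on the log2 scale, and Angptl4, with -1.90 ± 0.75, and for 4.93% of all genes. The members' median difference was 0.21, against 0.27 with the 4 antibody libraries named as in the series table and 0.00 without them. For Acadvl the difference was 0.35 ± 0.18, with an unadjusted p of 0.062 by edgeR, and for Acadm 0.31, with a 95% interval of -0.21 to 0.83. It was 0.21 for Hadha, 0.26 for Cpt1a, 0.86 for Pdk4, 0.25 for Plin2, -0.09 for Pparg, 0.90 for Ppargc1a, 0.12 for Cd36 and -0.50 for Fabp2, which turned to 0.65 with the table's names of the 4 antibody libraries.

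Set against the untreated colon, each treated group kept some members below Normal. In MEKi 1 against Normal, 4 of 31 members fell and 0 rose, where 12.8% of all genes passed (4.79% lower, 8.06% higher). They were Cd36 (-1.64 ± 0.38), Acsl1 (-1.03 ± 0.22), Plin2 (-0.53 ± 0.15) and Hadhb (-0.40 ± 0.13), and the members' median was -0.22. The count was 2, Cd36 and Acsl1, without Normal replicate 4, without MEKi 1 replicate 2 or without MEKi 1 replicate 4. Acsl1 had 26.0, 22.0, 17.6 and 12 CPM in MEKi 1 and 51.1, 27.2, 38.8 and 41.1 CPM in Normal, all below. Among the 27 members not past the threshold, the log2 fold change was -0.16 for Acadvl, -0.22 for Acadm, -0.25 for Hadha, -0.18 for Cpt1a, -0.44 for Pdk4, -0.84 for Angptl4, -1.07 for Ppara, -0.16 for Pparg, -0.94 for Ppargc1a and -0.68 for Fabp2.

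In MEKi 0.3 against Normal, 10 members fell and 0 rose, where 19.9% of all genes passed (9.06% lower, 10.8% higher), with a median of -0.39. The lowest were Cd36 (-1.86 ± 0.38), Ppara (-1.84 ± 0.56), Fabp2 (-1.56 ± 0.43), Acaa2 (-0.99 ± 0.25), Acsl1 (-0.86 ± 0.22) and Ehhadh (-0.75 ± 0.24), followed by Plin2 (-0.66), Acadvl (-0.45), Hadhb (-0.39) and Hadha (-0.37). The count was 6 without Normal replicate 4 and 5 without MEKi 0.3 replicate 4. Of those not past the threshold, Acadm was at -0.31, Cpt1a at -0.42, Pdk4 at -1.46, Angptl4 at 0.46, Pparg at -0.23 and Ppargc1a at -1.07.

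In Anti-TNFa against Normal, 10 members fell and 1, Acsl5, rose (0.73 ± 0.18), where 22.4% of all genes passed (9.9% lower, 12.5% higher), with a median of -0.45. The lowest were Cd36 (-1.92 ± 0.37), Fabp2 (-1.31 ± 0.41), Acaa2 (-0.95 ± 0.25), Plin2 (-0.94 ± 0.15), Acsl1 (-0.76 ± 0.21) and Acadm (-0.55 ± 0.19), followed by Hadhb (-0.52), Acadvl (-0.48), Eci2 (-0.45) and Hadha (-0.44). The count was 7 without Anti-TNFa replicate 1, 19 without Anti-TNFa replicate 4 and 2 without the 4 antibody libraries that the series table names otherwise. Of those not past the threshold, Cpt1a was at -0.07, Pdk4 at -0.90, Angptl4 at 0.60, Ppara at -1.13, Pparg at -0.01 and Ppargc1a at -0.88. The 3 comparisons share the Normal libraries, and their counts were not tested against each other.

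Genes around the pathway were described from 8 lists of 76 genes in all, chosen with earlier results of these data known. Their counts stand beside shares of all genes that passed of 46.4% in Vehicle against Normal, 41.2% in Isotype against Normal and 10.6% in MEKi 1 against Vehicle, and a count near its share is no result about the list. Of the ketone body genes, Acat1 and Oxct1, which handle acetoacetate, fell in Vehicle against Normal, at -0.68 and -0.67 on the log2 scale. Against Normal, Isotype also had both lower, Acat1 at -0.97 and Oxct1 at -0.46.

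Of the peroxisomal genes, Phyh, which starts the breakdown of branched chains, was lower in Vehicle against Normal at -0.69, Pex11a, which drives peroxisome division, at -0.45 and Hsd17b4, a bifunctional enzyme, at -0.33. In Isotype against Normal, Phyh (-0.81), Scp2 (-0.52), Amacr (-0.51) and Hsd17b4 (-0.35) fell. Pex11a rose in MEKi 1 against Vehicle (0.61 ± 0.17, adjusted p = 0.0268 by edgeR). Other mitochondrial and carnitine genes had 6 of 10 tested lower and 1 higher, Cpt1c (0.71), in Vehicle against Normal. The lower ones were led by Acad11 (-1.28), Acadsb (-0.88) and Acad10 (-1.34). Isotype had 6 of 10 lower against Normal, led by Acad11 (-1.11), Acad10 (-1.10) and Slc25a20 (-0.75), the carnitine carrier. Against Vehicle, MEKi 1 had 0 of 10 past the threshold by edgeR, 3 at an unadjusted p under 0.05 and 1, Acad10, by DESeq2.

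Of the other PPAR targets, 10 of 15 had enough counts, and 5 fell and 1 rose in Vehicle against Normal. Txnip, which restrains glucose uptake, was at 223 to 288 CPM in Vehicle and 805 to 981 CPM in Normal (-1.87 ± 0.31, adjusted p = 7.7e-05). The lipid droplet proteins Plin4 (-2.94) and Cidec (-2.42), the adipocyte carrier Fabp4 (-1.76) and the thioesterase Acot2 (-0.91) also fell, and Lpl, the lipase that Angptl4 inhibits, rose (1.57). In Isotype against Normal, Txnip was at -1.77, Plin4 at -2.30, Cidec at -2.85, Fabp4 at -1.87, Acot2 at -1.48 and Lpl at 1.68, all past the threshold. Plin4 rose in MEKi 1 against Vehicle by 1.76 ± 0.56 and Lpl fell by 2.11 ± 0.47 (adjusted p = 0.0148). Lpl was at 5.61 to 22.0 CPM in MEKi 1 and 46.3 to 90.2 CPM in Vehicle, so enzyme and inhibitor were both lower.

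Of the partners and coregulators of the receptors, 4 of 11 passed in Vehicle against Normal, all 4 lower. Of all genes, 46.4% passed in either direction and 23.3% were lower. The 4 were the corepressors Nrip1 (-0.98) and Ncor1 (-0.32), the coactivator Ppargc1b (-0.53) and the receptor Ppard (-0.51). In Isotype against Normal, 0 of 11 were past the threshold by edgeR, at an unadjusted p under 0.05 or by DESeq2. In MEKi 1 against Vehicle, 3 of 11 rose: the coactivator Ncoa1 (0.66 ± 0.14, adjusted p = 0.0115), Ppard (0.61 ± 0.14, adjusted p = 0.0147) and Ppargc1b (0.78 ± 0.21, adjusted p = 0.0251). Ppard was at 308 to 396 CPM in MEKi 1 and 189 to 258 CPM in Vehicle, without overlap.

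Synthesis genes did not move as 1 block. In Vehicle against Normal, 3 of 9 fell, Acly (-1.25), Scd1 (-0.99) and Fasn (-0.46), and 1 rose, the elongase Elovl6 (0.43), which DESeq2 did not call, so that the share was near the 46.4% of all genes. In Isotype against Normal Scd1 (-1.09) and Acly (-0.76) fell and another elongase, Elovl5, rose (0.49). With MEKi 1 against Vehicle, Acly, which makes cytosolic acetyl-CoA, rose by 0.80 ± 0.22 and Elovl6 fell by 0.59 ± 0.18. Uptake and activation genes had 4 of 9 lower and 2 higher in Vehicle against Normal, with the acetate-activating Acss2 at -1.59 and Acss1 at -1.55, Acsl3 at -1.56, the transporters Slc27a1 at -1.18 and Slc27a2 at 1.84, and the carrier Fabp5 at 2.06. Fabp5 fell in MEKi 1 against Vehicle by 1.71 ± 0.34 (adjusted p = 0.0112), and Acss2 (1.15 ± 0.32) and Acss1 (1.11 ± 0.34) rose. For Isotype against Normal, Slc27a1 (-1.48), Acsl3 (-1.40), Acss1 (-1.07) and Acss2 (-1.05) fell, and Slc27a2 (1.75) and Fabp5 (0.95) rose.

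For short-chain fatty acids, 4 of 5 genes were tested. The transporters Slc16a1 (-1.11 ± 0.20) and Slc5a8 (-0.84 ± 0.25) fell in Vehicle against Normal, and the receptor Hcar2, which is also expressed by neutrophils and macrophages, rose (3.02 ± 0.58). Slc5a8 rose in MEKi 1 against Vehicle by 0.83 ± 0.25 and Hcar2 fell by 1.72 ± 0.52. Slc5a8 was at 156 to 249 CPM in MEKi 1 and 93.2 to 155 CPM in Vehicle. For Isotype against Normal, Slc16a1 was at -0.82 and Hcar2 at 2.76. In MEKi 0.3 against Vehicle and in Anti-TNFa against Isotype, 0 of the 68 list genes tested passed by edgeR or by DESeq2, and 17 and 15 had an unadjusted p under 0.05 by edgeR, as had 17.8% and 11.2% of all genes.

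Against Normal, 20 of the 68 list genes tested passed by edgeR in MEKi 0.3, 5 in MEKi 1 and 16 in Anti-TNFa. Of all genes, 19.9%, 12.8% and 22.4% passed in these comparisons. The lists as a whole were not tested, and the genes below are single ones. Fabp4 was lower in MEKi 0.3 (-1.93), MEKi 1 (-1.68) and Anti-TNFa (-1.67), and Txnip in MEKi 0.3 (-1.26), MEKi 1 (-1.16) and Anti-TNFa (-0.89). Scd1 was lower in MEKi 0.3 (-1.20), MEKi 1 (-1.42) and Anti-TNFa (-0.81). Slc27a2 was higher in all 3, at 2.12 in MEKi 0.3, 2.10 in MEKi 1 and 2.25 in Anti-TNFa. Acsl3 was lower, at -1.09 in MEKi 0.3, -1.23 in MEKi 1 and -0.97 in Anti-TNFa. Hcar2 was higher in MEKi 0.3 (2.56) and Anti-TNFa (1.94).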

How the data were processed

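RNA of distal colon was sequenced in 24 libraries on an Ion Torrent instrument from poly(A) RNA cut with RNase III, per the labels' protocols. Each sample has a deposited file of whole-number counts per gene symbol. The authors mapped to mm10 (GRCm38), per the submitters' processing notes. Which aligner, counter and annotation they used, and whether strand was counted, is not given in the sources used here, so counts of genes that overlap on opposite strands are uncertain. Groups were taken from each sample's own file, and the series table was used only to check names.

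Counts were tested with edgeR 4.0.16 (R 4.3.3) by quasi-likelihood F tests after TMM scaling, in 1 fit of all 24 libraries on 14773 genes kept by its default filter. Adjusted p-values are Benjamini-Hochberg values over all tested genes of 1 comparison, with a threshold of 0.05. CPM is the count divided by the library's total. Levels per kilobase, and the offset for transcript length, use the joined length of all exons that GENCODE gives a gene. Fold changes are on the log2 scale, their SE was taken from the F statistic, and 95% intervals are 1.96 SE either side. Library totals of 3052940 to 10587555 limit precision for genes of a few counts. The floor was 3 counts, and no fold was given for Fabp1, which was below it in every library. Folds of Ppara and Pdk4 were given though some of their Vehicle libraries were below it. Replicate libraries differed by more than sampling noise, their chi-square per gene running from 5.38 to 59.9, so none was merged. The fit was tested on simulated data.

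Between MEKi 0.3 and Vehicle, same-numbered libraries had correlations of their deviations from the group means of 0.126, 0.125, 0.167 and 0.184, all over 0.1. The numbers were therefore taken as pairs in 1 alternative fit there, though the labels do not pair libraries. In the other comparisons at least 1 pair was at 0.1 or below, as in Anti-TNFa against Isotype, with 0.216, 0.0862, 0.142 and 0.342. The alternatives were DESeq2 1.42.0, RLE or no scaling factors, no filter beyond a summed count of 1, a fit of only the groups compared, a replicate block, an offset for transcript length and leaving out libraries. The 32 members, the 8 lists and the 13 marker lists were chosen with earlier results of these data known. Genes named in every comparison were 13 members, then the 6 highest and 6 lowest past the threshold, then up to 3 genes per list with the smallest p. Other members and list genes were named after their values were seen. Results for some genes of these lists are not reported here.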

Additional observations from a re-analysis of the deposited data

Results flagged for a closer look

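In 7 of 186 sets of 4 libraries, 1 library stood far from the other 3 of its group, by a test that chance meets in about 1 in 20 groups. The share flagged is not above that rate. Acaa1b was at 10.5 CPM in Anti-TNFa replicate 4, against at most 4.98 CPM in the other Anti-TNFa libraries. In that library Etfdh was at 93.0 CPM (the others 78.3 to 79.0) and Decr1 at 55.5 CPM (the others 42.0 to 43.8). Etfb was at 215 CPM in MEKi 1 replicate 4 (the others 135 to 148) and at 222 CPM in Isotype replicate 3 (the others 109 to 113). Cd36 was at 6.61 CPM in Vehicle replicate 1 (the others 3.41 to 3.79). Acsl1 was at 28.5 CPM in MEKi 0.3 replicate 4 (the others at most 20.5).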

How the results depend on the processing

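Of the alternatives for fold changes of members named in the text, 1884 kept direction and side of the threshold, 22 came to pass it, 113 no longer passed it and 33 changed sign, all 33 of them not past it. The sign changes outside the fits that leave out 1 library were Pparg with library size only (0.0368 in Isotype against Normal and 0.00874 in Anti-TNFa against Normal), with no filter (0.0568 in Isotype against Normal and 0.0533 in Anti-TNFa against Normal) and with a transcript length offset (0.0121 in Anti-TNFa against Isotype). Without the 4 antibody libraries of differing names, Cpt1a turned to 0.0766 in Anti-TNFa against Normal, and in the difference between the treatment effects Hadha to -7.2e-05 and Cd36 to -0.0273. With the table's names Fabp2 turned to 0.65 in that difference. Where a sign changed, leaving out 1 library at a time gave log2 fold changes of Pparg of -0.163 to 0.0699 in Vehicle against Normal, -0.0732 to 0.127 in Isotype against Normal, -0.162 to 0.00774 in MEKi 1 against Vehicle, -0.0517 to 0.0272 in Anti-TNFa against Isotype, -0.0804 to 0.12 in Anti-TNFa against Normal and -0.155 to 0.0117 in the difference. Angptl4 ranged over -0.167 to 0.827 in MEKi 0.3 against Normal, Cpt1a over -0.176 to 0.0635 in Anti-TNFa against Normal, and in the difference Cd36 over -0.178 to 0.394 and Fabp2 over -0.751 to 0.0605. DESeq2 gave no adjusted p for 1, Pdk4 in MEKi 0.3 against Vehicle. Leaving out 1 library at a time gave 20 to 24 members past the threshold in Vehicle against Normal, 20 to 25 in Isotype against Normal, 0 to 15 in MEKi 1 against Vehicle, 0 to 9 in MEKi 0.3 against Vehicle, 0 to 0 in Anti-TNFa against Isotype, 2 to 5 in MEKi 1 against Normal, 5 to 13 in MEKi 0.3 against Normal and 7 to 19 in Anti-TNFa against Normal. In MEKi 1 against Vehicle, DESeq2 kept the 11 members and added Acaa2, Cpt1a, Cpt2 and Fabp2. A transcript length offset kept 10 of them and added Cpt2 and Eci1. The count there was 6 with no filter and 7 with a replicate block, against 11. In MEKi 0.3 against Vehicle it was 1 by DESeq2 and 3 with a replicate block and only those groups, against 0. Of 24 libraries, 3 correlated best with their own replicate number. In Anti-TNFa against Isotype DESeq2 gave 1, against 0. In Anti-TNFa against Normal it was 7 with no filter and 2 without the 4 antibody libraries of differing names, against 11. Over all genes, MEKi 1 against Vehicle had 898 higher and 667 lower, 1280 and 954 by DESeq2, and 382 and 391 with no filter. The cause of these shifts was not tested. Ppara and Pdk4 rest on few counts per library, which limits their precision.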
